A study of Mus musculus with 8 samples.

Results

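The 10 genes described here are 4 chemokine ligands (Cxcl1, Cxcl2, Cxcl12 and Ccl2) and 6 genes of the NF-κB pathway or its response (Nfkb1, Relb, Nfkbia, Tnfaip3, Icam1 and Birc3). They were taken by gene symbol from a table of raw read counts that lists 56748 genes, and each symbol matched 1 row. RNA of primary hepatocytes cultured for 24 h on collagen-coated polyacrylamide of 1 kPa (soft) or 20 kPa (stiff) was sequenced, which asked how substrate stiffness acts on gene expression and whether YAP and TAZ take part. All mice carried the floxed Yap and Taz alleles (Yap fl/fl; Taz fl/fl, on C57BL/6J), and by the study's methods a tdTomato reporter at ROSA26. Hepatocytes called wild type came from mice given AAV8-TBG-Null and hepatocytes called knockout from mice given AAV8-TBG-Cre, a virus in which the hepatocyte promoter TBG drives Cre, so that other liver cells were not aimed at. Virus was given at 7 to 8 weeks of age and cells were isolated after 10 days. One label field gives female mice, and another, like the study's methods, gives male mice. The same field and methods put the mice at 8 weeks of age when hepatocytes were isolated, which does not match the ages at injection and the days after it. Each genotype was cultured on each hydrogel, and the 4 groups held 2 libraries each, and nothing says whether the libraries of a group came from separate animals or cultures, so p-values measure only the spread between these libraries, which may be technical.

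Chemokines are small secreted proteins that draw leukocytes and other cells along a gradient by binding G-protein-coupled receptors. NF-κB is a family of dimeric transcription factors (RelA, RelB, c-Rel, p50 and p52) that inhibitors of the IκB family hold in the cytoplasm until the IKK kinases mark the inhibitor for degradation. Several of its target genes encode its own inhibitors, so that their transcripts are often read as a record of pathway activity, and in the injured liver chemokines of this response recruit monocytes and neutrophils. YAP and TAZ are coactivators of the Hippo pathway that enter the nucleus on stiff substrates and act mainly through TEAD factors.

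Library totals ran from 18324083 to 26442310 counts, and 14279 genes passed the filter on low counts, all 10 chosen genes among them. Values below are CPM, counts brought to a common library total with edgeR's TMM scaling. A count of 0 would allow up to 3 counts, or between 0.116 and 0.167 CPM, which covers counting error only. Yap1 stood at 95.5 to 140 CPM in the wild-type and 28.4 to 31.8 CPM in the knockout libraries, and Wwtr1, which encodes TAZ, at 41.5 to 65.2 and 13.7 to 16.6 CPM, so no knockout library reached a wild-type one. Of 6 defining hepatocyte markers 6 were detected, at a summed level of 60455 to 92303 CPM, most of it from Alb. Within this list the log2 difference of Alb was -0.66 between knockout and wild type on stiff, and that of Hnf4a was -0.98 between stiff and soft in wild type and 1.17 between knockout and wild type on stiff, opposite to Alb. Of the 6 markers 1 was called higher and 2 lower in the knockout on stiff. A gene was called where edgeR's quasi-likelihood test gave a Benjamini-Hochberg adjusted p under 0.05 over all tested genes together with an absolute log2 fold change over 0.5.

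The stretches upstream of the gene starts are printed for the 4 chosen genes that hold a match to the kappaB consensus, the site that NF-κB dimers bind. The pattern searched was GGGRNNYYCC, where R is A or G, Y is C or T and N is any base. Icam1, which was called in comparisons below and holds no match to this strict pattern, is printed too. Its window holds TGGAAATTCC, which differs from the pattern in the first base only, and such near matches were not counted. They are the 250 bases before the annotated start in the RefSeq table of GRCm38.p6, 5′ to 3′ on the gene's strand, and capitals mark the kappaB match on either strand.
Cxcl1 (chr5:90890995-90891244, plus strand): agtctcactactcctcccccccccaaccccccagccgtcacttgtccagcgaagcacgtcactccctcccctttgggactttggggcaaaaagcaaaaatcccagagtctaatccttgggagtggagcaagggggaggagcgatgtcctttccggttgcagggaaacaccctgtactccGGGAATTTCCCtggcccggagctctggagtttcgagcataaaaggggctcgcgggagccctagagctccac
Cxcl2 (chr5:90903649-90903898, plus strand): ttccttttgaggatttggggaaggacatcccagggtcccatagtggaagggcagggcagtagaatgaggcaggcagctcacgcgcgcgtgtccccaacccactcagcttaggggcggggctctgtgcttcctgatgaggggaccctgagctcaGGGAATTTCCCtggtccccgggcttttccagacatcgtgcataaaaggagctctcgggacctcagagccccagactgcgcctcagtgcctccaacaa
Nfkbia (chr12:55492648-55492897, minus strand): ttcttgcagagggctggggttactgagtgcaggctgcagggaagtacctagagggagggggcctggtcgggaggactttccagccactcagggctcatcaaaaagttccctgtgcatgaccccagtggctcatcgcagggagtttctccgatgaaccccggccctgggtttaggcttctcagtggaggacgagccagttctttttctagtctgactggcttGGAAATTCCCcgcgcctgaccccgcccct
Tnfaip3, the first of 2 listed starts (chr10:19015411-19015660, minus strand): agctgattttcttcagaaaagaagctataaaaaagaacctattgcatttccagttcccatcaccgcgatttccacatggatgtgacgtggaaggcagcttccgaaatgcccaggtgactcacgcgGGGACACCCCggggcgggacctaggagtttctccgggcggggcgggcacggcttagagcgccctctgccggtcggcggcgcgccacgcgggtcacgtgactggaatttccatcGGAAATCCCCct
Icam1 (chr9:21015690-21015939, plus strand): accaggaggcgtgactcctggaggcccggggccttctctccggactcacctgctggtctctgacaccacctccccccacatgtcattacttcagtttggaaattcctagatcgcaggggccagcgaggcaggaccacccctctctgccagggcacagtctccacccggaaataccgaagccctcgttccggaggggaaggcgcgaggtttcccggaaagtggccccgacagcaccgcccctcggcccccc

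Of the 10 genes 7 had an entry in this table, without Ccl2, Nfkb1 and Relb. The match lay 71 to 61 bases before the start in Cxcl1 and 97 to 87 bases before it in Cxcl2, in both as 1 stretch that matched on the plus strand and, 1 base further on, on the minus strand. In Nfkbia it lay 29 to 20 bases before the start. In Tnfaip3 there was one at 125 to 116 and another at 12 to 3 bases. A kappaB match was thus present in 4 of 7 genes, against 8.23% of the 27025 genes and 7.25% of the 32851 windows in the table. The TEAD letters GGAATG, searched on both strands, occurred in 0 of 7 and in 14.4% of all genes, and the AP-1 letters TGANTCA in 1 of 7 (Tnfaip3, 136 to 130 bases before the start, without overlap with the kappaB match) and in 7.82% of all genes. The genes were chosen as chemokines and NF-κB pathway or response genes, so the kappaB share is not independent of that choice and is no test. These matches describe letters in a short window and say nothing of binding.

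**Figure D1:**
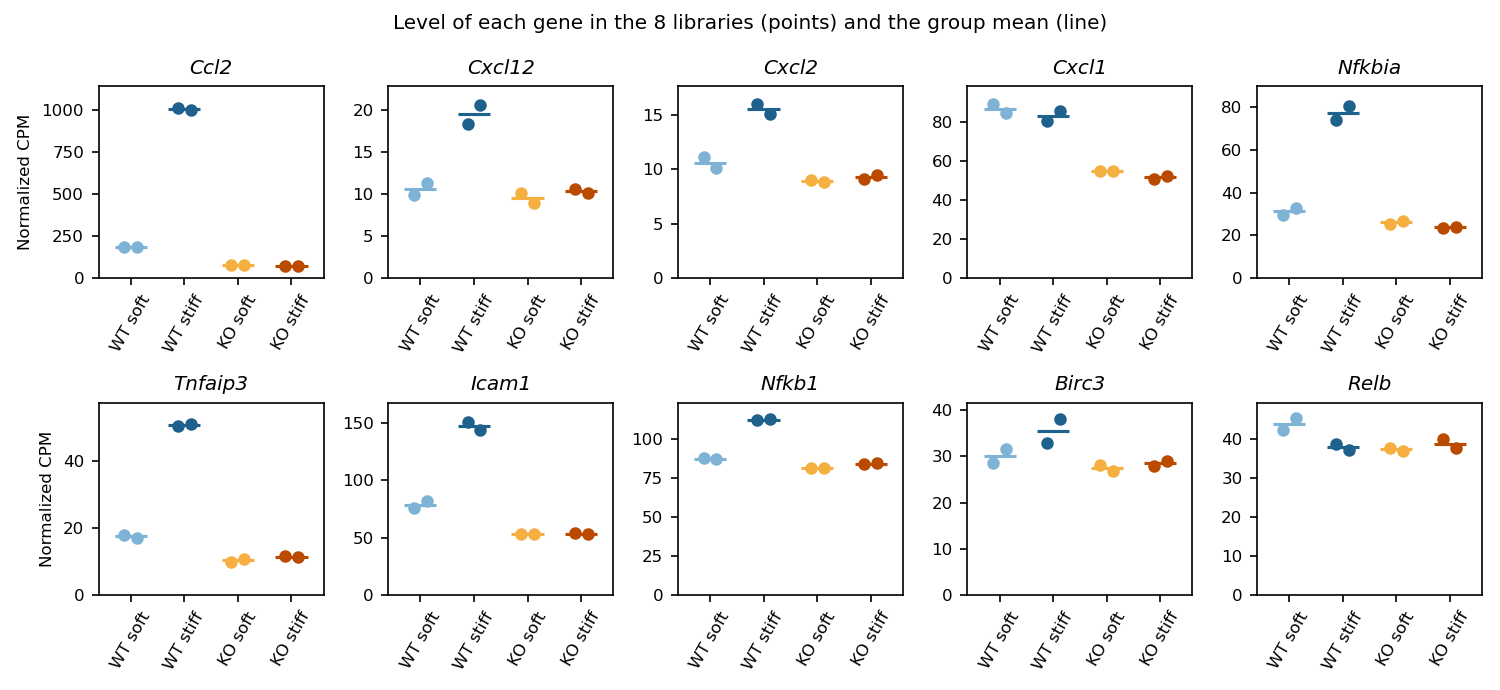
Level of each of the 10 genes in normalized CPM (linear axis from 0, a scale per gene) in the 8 libraries, with 2 points per group (WT, wild type; KO, knockout) and a line at the group mean. In Ccl2, Cxcl12, Cxcl2, Nfkbia, Tnfaip3, Icam1, Nfkb1 and Birc3 both wild-type stiff points lie above the other 6, and in Cxcl1 the 4 wild-type points lie above the 4 knockout points.

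Of the 4 chemokine ligands, 3 were called higher with stiffness in wild type. Ccl2, which draws CCR2-bearing monocytes, rose 5.45-fold on the stiff hydrogel, and Cxcl12 and Cxcl2 rose 1.84-fold and 1.46-fold, while Cxcl1 was not called. In knockout hepatocytes none of the 4 was called between the hydrogels.

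Ccl2 (ENSMUSG00000035385, protein-coding, chromosome 11, 81926397 to 81928279 in the deposited table) had 183 and 187 CPM in the wild-type soft libraries and 1012 and 1002 CPM in the wild-type stiff libraries. In the knockout it had 78.5 and 75.8 CPM on soft and 72.5 and 71.5 CPM on stiff. The stiff wild-type libraries stood far above the other 6, and the knockout libraries on either hydrogel lay below wild type on soft. Group means were 185 ± 2.65, 1007 ± 6.62, 77.2 ± 1.93 and 72.0 ± 0.708 CPM (SD, n = 2) in the same order. The log2 fold change from soft to stiff was 2.45 in wild type (SE 0.041, edgeR adjusted p = 6.65e-18). In the knockout it was -0.10 (95% interval -0.19 to -0.0079, edgeR adjusted p = 0.634). The difference of these values, the interaction, was -2.55 (SE 0.059, edgeR adjusted p = 2.00e-15). The log2 difference of knockout from wild type was -1.26 on soft (SE 0.042, edgeR adjusted p = 3.66e-13), and on stiff the knockout was 14.0-fold lower (log2 -3.80, SE 0.044, edgeR adjusted p = 3.02e-20). Ccl2 ranked 128th of the 14279 tested genes by the size of the knockout difference on stiff and 185th by the size of the stiffness difference in wild type.

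Cxcl12 (chromosome 6, 117145496 to 117158328), the ligand of CXCR4 that keeps and homes leukocytes and progenitor cells, was the lowest of the 4 ligands per base of the deposited gene length. It had 9.90 and 11.4 CPM in wild type on soft and 18.4 and 20.6 CPM on stiff. The knockout libraries had 10.2 and 9.002 CPM on soft and 10.7 and 10.2 CPM on stiff, which overlapped wild type on soft and not on stiff. Its log2 change from soft to stiff was 0.88 in wild type (SE 0.121, edgeR adjusted p = 1.08e-05) and the interaction was -0.77 (SE 0.176, edgeR adjusted p = 0.00286). In the knockout the change was 0.12 with a 95% interval of -0.15 to 0.39. The knockout was lower on stiff (log2 difference -0.90, SE 0.122, edgeR adjusted p = 5.72e-06), and on soft the difference was -0.14 (edgeR adjusted p = 0.519), so that the wild-type stiff group alone stood apart.

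Cxcl2 (chromosome 5, 91051730 to 91053797), a neutrophil attractant that signals through CXCR2, had 11.2 and 10.1 CPM in wild type on soft and 16.0 and 15.1 CPM on stiff. The knockout libraries had 9.05 and 8.80 CPM on soft and 9.13 and 9.49 CPM on stiff, below each wild-type library. The change from soft to stiff in wild type was small and near the fold limit, at 0.54 (SE 0.118, edgeR adjusted p = 0.0011). Without the second wild-type soft library it was 0.48 (edgeR adjusted p = 0.0128) and was no longer called. The interaction was -0.49 (SE 0.172, edgeR adjusted p = 0.041), under the fold limit, and it was called at -0.58 (edgeR adjusted p = 0.0355) without the first wild-type soft library. On the stiff hydrogel the knockout was lower (log2 difference -0.74, SE 0.120, edgeR adjusted p = 4.67e-05). Cxcl2 shares 4.69% of its 64-base windows with its neighbour Cxcl3, so a small part of its reads could be counted for either gene.

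Cxcl1 (chromosome 5, 91039100 to 91040974) encodes another CXCR2 ligand and lies beside Cxcl2, but its values followed genotype and not stiffness. It had 89.1 and 84.5 CPM in wild type on soft and 80.6 and 85.6 CPM on stiff, and the ranges overlapped. The knockout libraries had 54.9 and 54.8 CPM on soft and 50.7 and 52.4 CPM on stiff, all below wild type. The stiff-to-soft difference was -0.06 in wild type (95% interval -0.18 to 0.052) and -0.09 in the knockout (-0.21 to 0.035), and the interaction was -0.02 with an interval of -0.19 to 0.15 (edgeR adjusted p = 0.864). The knockout was lower on soft (log2 difference -0.66, SE 0.057, edgeR adjusted p = 8.59e-08) and on stiff (-0.69, SE 0.058, edgeR adjusted p = 1.16e-08). The kappaB match printed above has the same letters in Cxcl1 and Cxcl2. In wild type Cxcl2 was called with stiffness and Cxcl1 was not, and the difference between these 2 genes was not itself tested. Whether the match bears on either value was not tested.

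Among the NF-κB pathway genes of the 10, the inhibitor gene Nfkbia and the feedback gene Tnfaip3 were called with stiffness in wild type, and the subunit genes Nfkb1 and Relb were not. Nfkbia rose 2.46-fold and Tnfaip3 2.91-fold on the stiff hydrogel, and both were lower in the knockout on stiff, 3.24-fold and 4.45-fold. Nfkb1 and Relb were called in 0 of the 5 comparisons.

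Nfkbia (chromosome 12, 55536195 to 55539432) encodes IκBα, which binds NF-κB dimers in the cytoplasm and takes them off DNA. It had 29.7 and 32.9 CPM in wild type on soft and 73.6 and 80.2 CPM on stiff. The knockout had 25.4 and 26.8 CPM on soft and 23.4 and 24.1 CPM on stiff, so the wild-type stiff libraries lay apart from the other 6. Its log2 change from soft to stiff was 1.30 in wild type (SE 0.071, edgeR adjusted p = 5.53e-11) and -0.14 in the knockout (95% interval -0.30 to 0.031), with an interaction of -1.44 (SE 0.106, edgeR adjusted p = 8.62e-09). On soft the knockout difference of -0.26 had an edgeR adjusted p of 0.0232 but missed the fold limit, and on stiff it was -1.70 (SE 0.074, edgeR adjusted p = 9.28e-13).

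Tnfaip3 (chromosome 10, 18876658 to 18891405) encodes A20, a ubiquitin-editing enzyme that ends signalling from TNF and Toll-like receptors. It had 18.0 and 16.8 CPM in wild type on soft and 50.3 and 51.1 CPM on stiff. The knockout had 9.84 and 10.6 CPM on soft and 11.4 and 11.3 CPM on stiff, below wild type on both hydrogels. Its log2 change from soft to stiff was 1.54 in wild type (SE 0.085, edgeR adjusted p = 6.28e-11) and 0.15 in the knockout (95% interval -0.059 to 0.37), with an interaction of -1.38 (SE 0.133, edgeR adjusted p = 2.40e-07). The knockout lay below wild type on soft (log2 difference -0.77, SE 0.096, edgeR adjusted p = 9.98e-06) and on stiff (-2.16, SE 0.090, edgeR adjusted p = 5.11e-13).

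Nfkb1 (chromosome 3, 135290416 to 135397308) encodes p105, the precursor of the p50 subunit, and is itself a target of the pathway. It had 87.5 and 86.9 CPM in wild type on soft and 112 and 113 CPM on stiff, against 81.3 to 84.4 CPM in the 4 knockout libraries. The difference between the wild-type groups was 0.37 (SE 0.048, edgeR adjusted p = 6.70e-06), and that between knockout and wild type on stiff was -0.42 (SE 0.049, edgeR adjusted p = 8.75e-07). Both passed the p limit and missed the fold limit, and so did the interaction of -0.32 (edgeR adjusted p = 0.0017).

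Relb (chromosome 7, 19340142 to 19363363), the subunit of the alternative pathway, had 42.2 and 45.2 CPM in wild type on soft and 38.6 and 37.1 CPM on stiff. The knockout libraries had 36.9 to 39.9 CPM. Its stiff-to-soft difference in wild type was -0.21 (SE 0.068, edgeR adjusted p = 0.0214), of opposite sign to those of Nfkb1 and Nfkbia and under the fold limit. Between knockout and wild type on stiff the difference was 0.03 with a 95% interval of -0.11 to 0.18. Rela, which encodes the main activating subunit and is not among the 10, was not called in any comparison and its log2 differences lay between -0.18 and 0.37.

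Icam1 (chromosome 9, 20927281 to 20940113), the adhesion molecule that leukocyte integrins grip, had 75.6 and 81.9 CPM in wild type on soft and 151 and 144 CPM on stiff. The knockout had 53.3 and 53.0 CPM on soft and 54.0 and 53.0 CPM on stiff, below each wild-type library. It rose 1.88-fold with stiffness in wild type (log2 0.91, SE 0.054, edgeR adjusted p = 1.64e-10). In the knockout the difference was 0.01 with a 95% interval of -0.11 to 0.13, and the interaction was -0.90 (SE 0.079, edgeR adjusted p = 8.03e-08). Between genotypes the log2 difference was -0.56 on soft (SE 0.057, edgeR adjusted p = 6.56e-07) and -1.46 on stiff (SE 0.056, edgeR adjusted p = 1.44e-13). The RNA Gm47079 on the other strand shares 18.1% of the 64-base windows of Icam1 and had 0 counts in the 8 libraries. The methods state that dUTP was used in cDNA synthesis and the labels allow a directional or a non-directional library, but whether the counting used strand is not given in the sources used here, so how reads of these 2 genes were split is uncertain.

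Birc3 (chromosome 9, 7848700 to 7873187) encodes cIAP2, a ubiquitin ligase that holds TNF receptor signalling on the side of survival. It had 28.5 and 31.7 CPM in wild type on soft and 33.0 and 38.1 CPM on stiff, and 26.8 to 29.1 CPM in the knockout. The wild-type difference was 0.24 (SE 0.085, edgeR adjusted p = 0.0289) and the knockout difference on stiff was -0.32 (SE 0.086, edgeR adjusted p = 0.00511), both under the fold limit. The interaction of -0.19 had an edgeR adjusted p of 0.274.

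**Figure D2:**
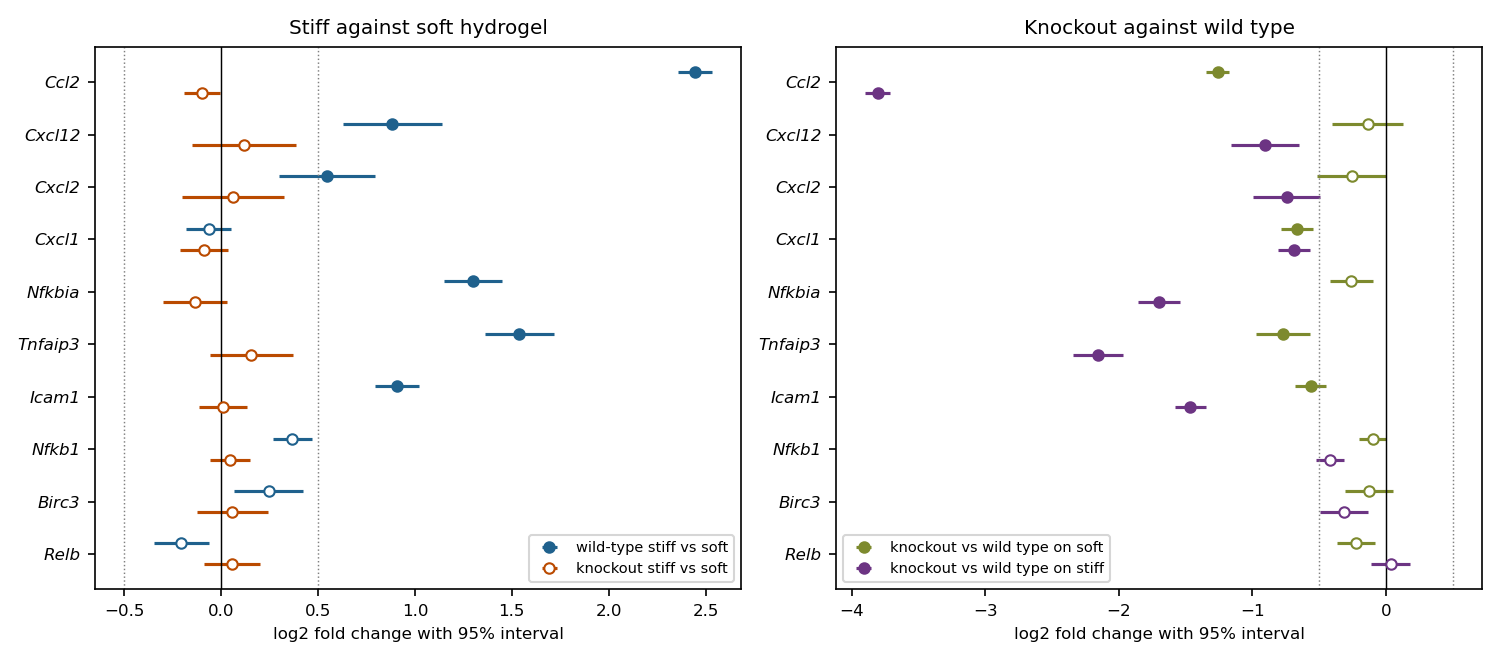
Log2 fold change of the 10 genes with its 95% interval (bars), for stiff against soft in each genotype (left) and for knockout against wild type on each hydrogel (right). Filled points are called genes and dotted lines mark the fold limit of 0.5. All knockout stiff-to-soft points lie between -0.14 and 0.15, while Ccl2 reaches 2.45 in wild type and -3.80 in the knockout difference on stiff.

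Counted together, 6 of the 10 genes were called higher on stiff than on soft in wild type, against 10.0% of all tested genes, and 0 were called lower, against 9.26% (edgeR; 1 gene, Relb, was lower at an unadjusted p under 0.05, and DESeq2 called 0). The median log2 change was 0.71 over the 10 genes and -0.0087 over all tested genes. In the knockout 0 of the 10 were called in either direction, where 0.0140% of all genes were called higher and 0.00700% lower. There 1 of the 10, Ccl2, had an unadjusted edgeR p under 0.05 (0.0349, lower on stiff), DESeq2 called 0, and the median over the 10 was 0.051. Of all 14279 tested genes, 1077 had an unadjusted edgeR p under 0.05 in that comparison. For the interaction (knockout minus wild type) 5 of 10 were called negative, against 8.21% of all genes, and 0 positive, against 8.64% (edgeR; 1, Relb, was positive at an unadjusted p under 0.05, and DESeq2 called 0). Relb had -0.21 in wild type and 0.05 in the knockout, so a positive value here is not a larger stiffness effect in the knockout. The comparisons share libraries, the wild-type stiff group entering 3 of them, and the 10 genes were chosen with results of these data known, so these counts describe the genes and are not independent of one another.

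Knockout against wild type gave 4 of 10 genes lower on soft (Ccl2, Tnfaip3, Cxcl1 and Icam1), against 4.65% of all tested genes, and 0 higher, against 2.02%. On stiff 7 of 10 were lower (these 4 with Nfkbia, Cxcl12 and Cxcl2), against 15.0%, and 0 higher, against 13.7%. In both comparisons 0 of the 10 had an unadjusted edgeR p under 0.05 in the higher direction, and DESeq2 called 0 higher. The medians over the 10 genes were -0.26 on soft and -0.82 on stiff, beside -0.00031 and 0.011 over all tested genes.

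Levels between genes were compared as RPKM, the CPM value scaled to gene length as the deposited table gives it. That length exceeds the longest annotated transcript unevenly. It is 12061 against 4149 bases for Nfkb1, 5009 against 2909 for Birc3 and 7226 against 6199 for Tnfaip3. The order and overlaps below hold for the deposited length only and can differ on transcript length. In wild type on soft the order was Ccl2 (162), Cxcl1 (46.3), Nfkbia (19.4), Icam1 (18.1), Relb (11.3), Nfkb1 (7.23), Birc3 (6.01), Cxcl2 (5.14), Tnfaip3 (2.41) and Cxcl12 (1.30). Nfkbia and Icam1 overlapped between libraries there. In wild type on stiff Ccl2 stood at 885 RPKM and Nfkbia at 47.8 RPKM, which placed Nfkbia just above Cxcl1 at 44.3 RPKM. Cxcl2 (7.53), Birc3 (7.10) and Tnfaip3 (7.01) came next to each other on stiff with overlapping libraries. On this scale Tnfaip3 thus reached genes it lay well below on soft. Both knockout groups kept the order Ccl2, Cxcl1, Nfkbia, Icam1, Relb, Nfkb1, Birc3, Cxcl2, Tnfaip3, Cxcl12, from 67.8 to 1.17 RPKM on soft and from 63.3 to 1.28 RPKM on stiff.

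The pathway lists below are read beside the shares of all tested genes given above, 10.0% higher and 9.26% lower with stiffness in wild type and 13.7% higher and 15.0% lower in the knockout on stiff. Other chemokine ligands moved in both directions. Of 17 further ligands tested, 5 rose and 3 fell with stiffness in wild type (median 0.098), and 6 were lower and 4 higher in the knockout on stiff (median -0.42). Ccl7, which lies with Ccl2 among the monocyte attractants, had 8.17 and 10.4 CPM in wild type on soft and 45.7 and 46.8 CPM on stiff, a log2 change of 2.33 (SE 0.121), and its knockout difference on stiff was -3.32. Ccl20, the ligand of CCR6, rose by 2.29 (log2, SE 0.170) and had a knockout difference of -4.03 on stiff. For Ccl9 that difference was -1.85. Ccl5, a T cell and monocyte attractant, went the other way, with 10.9 and 9.39 CPM on soft and 2.75 and 2.59 CPM on stiff in wild type (log2 -1.93, SE 0.169). The wild-type stiff response of the ligands was thus not of a single sign.

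Of 5 chemokine receptor genes tested, 1 fell and 0 rose with stiffness in wild type (edgeR; 0 rose at an unadjusted p under 0.05, and DESeq2 called 0 higher), and on stiff 2 were higher and 1 lower in the knockout. The fall was not called (0 of 5) without the first wild-type soft or the second wild-type stiff library, and 2 were called without the first wild-type stiff library. Among 8 further subunit and inhibitor genes 1 was called in either comparison, Nfkbie, which encodes the inhibitor IκBε. The count of 1 of 8 lies near the shares of all tested genes and is no result about this list. Other inhibitor genes were not called in wild type, with log2 differences of 0.04 for Nfkbib and 0.18 for Nfkbiz. Nfkbil1 and Bcl3 of the same list, also not called, had lower wild-type means on stiff than on soft. These were 7.22 against 9.78 CPM and 87.1 against 93.4 CPM. All of these genes were named after their values were seen. Nfkbie had 9.01 and 8.44 CPM in wild type on soft and 28.5 and 27.1 CPM on stiff (log2 1.67, SE 0.119), and its knockout difference on stiff was -2.19. As with Nfkbia, the wild-type stiff libraries lay above the other 6.

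Of 16 IKK and upstream kinase genes, 2 rose with stiffness in wild type and 0 fell (edgeR; 4 were lower at an unadjusted p under 0.05, and DESeq2 called 0 lower), and 3 were lower and 1 higher in the knockout on stiff. The counts in each direction lie near those shares and are no result about the kinases as a group. Ripk2, the kinase of NOD receptors, rose by 0.96 and Ikbke by 0.53, and their knockout differences on stiff were -1.11 and -0.96. Ikbkg, the scaffold NEMO, was 0.67 higher in the knockout there, but it overlaps G6pdx on the other strand, which makes its value uncertain.

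Of 24 receptors and adaptors upstream, 4 were higher and 4 lower on stiff in wild type, against 10.0% and 9.26% of all tested genes. In the knockout on stiff 4 were higher and 5 lower, against 13.7% and 15.0%. These small counts were not tested and are no result about the receptors as a group. Tlr5, the flagellin receptor, rose by 1.28 and Tlr3, which senses double-stranded RNA, by 0.77. Cd14, the co-receptor for lipopolysaccharide, fell by 1.19 with stiffness and was higher in the knockout on stiff by 1.44. Of 17 further genes of ubiquitin editing and feedback, 2 rose and 4 fell in wild type, and 2 were lower and 3 higher in the knockout on stiff. The deubiquitinase gene Cyld rose by 0.66, and Zfp36, which encodes a protein that destabilizes cytokine mRNAs, fell by 0.74. Otulin had a log2 difference of -0.61 in wild type and overlaps Ank on the other strand, so that value is uncertain, and Xiap was 0.68 higher in the knockout on stiff.

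Of 27 further NF-κB target genes, 10 rose and 5 fell with stiffness in wild type, and 14 were lower and 4 higher in the knockout on stiff (medians 0.28 and -0.53). Csf1, the growth factor of macrophages, had 70.7 and 76.4 CPM in wild type on soft and 442 and 437 CPM on stiff (log2 2.58, SE 0.052), and 25.5 to 28.3 CPM in the knockout. F3, which encodes tissue factor, rose by 2.24 and Gadd45b, a stress-response gene, by 1.92. These 3 had knockout differences of -4.10, -4.02 and -2.86 on stiff, and those of Csf1 and F3 were larger than that of Ccl2. Lcn2 of the same list, named after its values were seen, went the other way. It had 226 and 224 CPM in wild type on soft, 77.0 and 72.9 CPM on stiff, and 137 to 145 CPM in the knockout. Of 8 other cytokine genes, 3 fell and 0 rose with stiffness in wild type (edgeR; 0 rose at an unadjusted p under 0.05, and DESeq2 called 0 higher), among them Il1rn, the interleukin-1 receptor antagonist, by 1.11. The knockout difference on stiff was -1.12 for Il33 and 0.56 for Il1rn, where 3 of 8 were higher and 2 lower.

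In the knockout 0 genes of these 8 lists were called between the hydrogels by edgeR or by DESeq2. At an unadjusted edgeR p under 0.05 there were 2 of 21 chemokine ligands, 0 of 5 chemokine receptors, 3 of 11 subunits and inhibitors, 0 of 16 kinases, 2 of 24 receptors and adaptors, 1 of 19 ubiquitin editing genes, 2 of 28 targets and 1 of 8 other cytokines, the chosen genes included. Among all 14279 tested genes 1077 had such a p. The list counts are small and were not tested as groups.

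**Figure D3:**
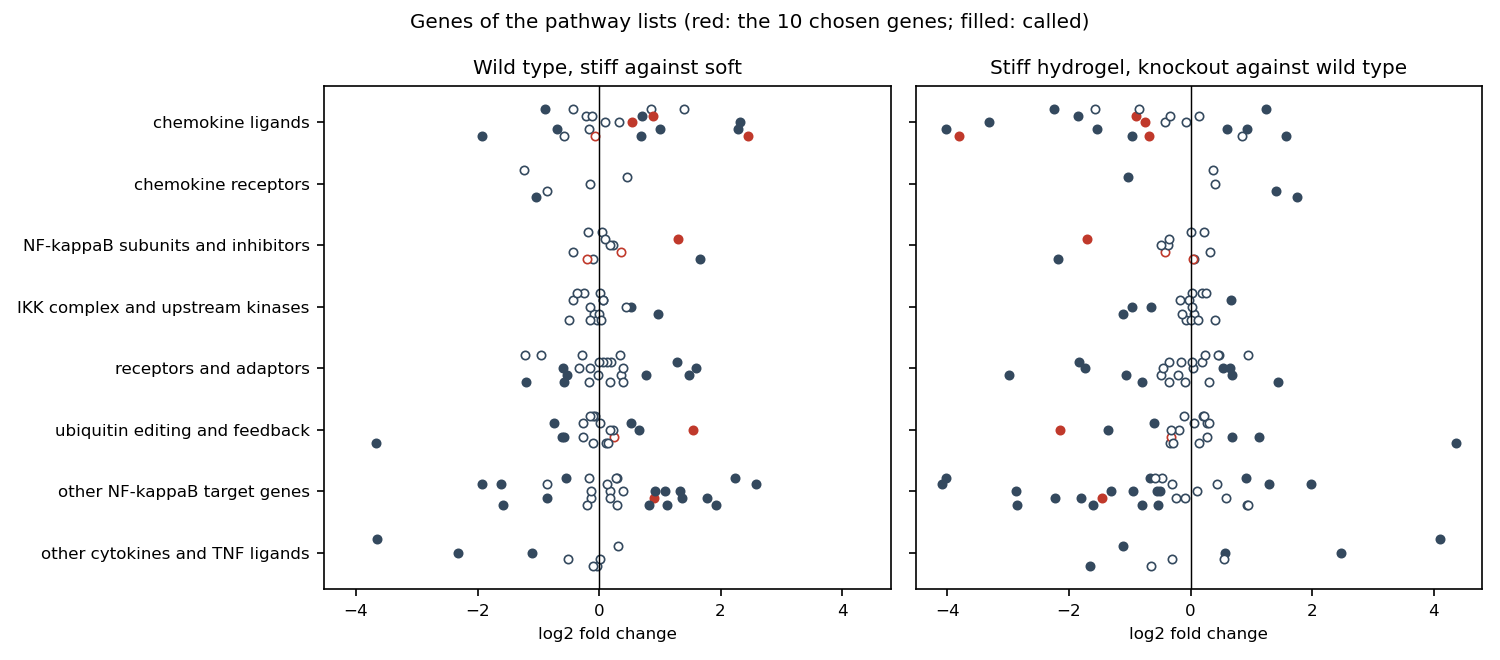
Log2 fold change of each tested gene of the 8 pathway lists (rows) for stiff against soft in wild type (left) and knockout against wild type on stiff (right). Points are genes, filled where called and red for the 10 chosen genes. Called points of the ligand and target lists lie on both sides of 0, with Ccl2 and Csf1 at 2.45 and 2.58 on the left and at -3.80 and -4.10 on the right.

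Summed markers of other liver cells stood far below the hepatocyte sum, and in these bulk samples fewer cells of a type and less RNA per cell cannot be told apart. All 8 Kupffer cell and macrophage markers were detected, at a summed 86.6 and 83.2 CPM in wild type on soft, 58.2 and 64.1 CPM on stiff, and 120.6 to 123.6 CPM in the knockout. Cd68 made up 46.0 and 46.4 CPM of this sum in wild type on soft. With stiffness in wild type 4 of the 8 were called lower and 0 higher, and in the knockout on stiff 8 were higher and 0 lower (edgeR). At an unadjusted edgeR p under 0.05, 0 went the opposite way in either comparison. Endothelial markers summed to 57.1 and 51.9 CPM in wild type on soft, 38.1 and 37.9 CPM on stiff, and 66.2 to 71.1 CPM in the knockout. Of 6 endothelial markers tested, 2 were called lower and 0 higher with stiffness in wild type, and 5 higher and 0 lower in the knockout on stiff (edgeR). Here too 0 went the opposite way at an unadjusted edgeR p under 0.05. Stellate cell and fibroblast markers summed to 32.3 and 32.3 CPM, 22.6 and 20.5 CPM, and 43.8 to 49.9 CPM. Of 6 tested, 1 was called higher and 3 lower with stiffness in wild type, and 5 higher and 1 lower in the knockout on stiff. The exception to the sum was Col1a1, with 3.85 and 4.05 CPM in wild type on soft, 6.70 and 6.81 CPM on stiff and 3.38 to 5.01 CPM in the knockout. These 3 sums were lowest in the wild-type stiff libraries, where Ccl2, Nfkbia, Tnfaip3, Icam1, Cxcl12 and Cxcl2 were highest, and highest in the knockout. Cholangiocyte markers summed to 571 to 626 CPM in wild type and 341 to 367 CPM in the knockout, with Cftr at 0, and Spp1 made up 507 to 543 CPM of the sum in wild type. Of 5 tested, 1 was called higher with stiffness in wild type and 0 lower (edgeR; 0 lower at an unadjusted p under 0.05). That one, Krt19, moved in the direction of Ccl2, with 1.81 and 2.44 CPM in wild type on soft, 21.0 and 20.1 CPM on stiff and 0.429 to 0.845 CPM in the knockout. Neutrophil markers summed to at most 0.515 CPM with Retnlg at 0, and T and B cell markers to at most 0.501 CPM with Cd3e at 0. The part of these cells in the values of the 10 genes was not tested.

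**Figure D4:**
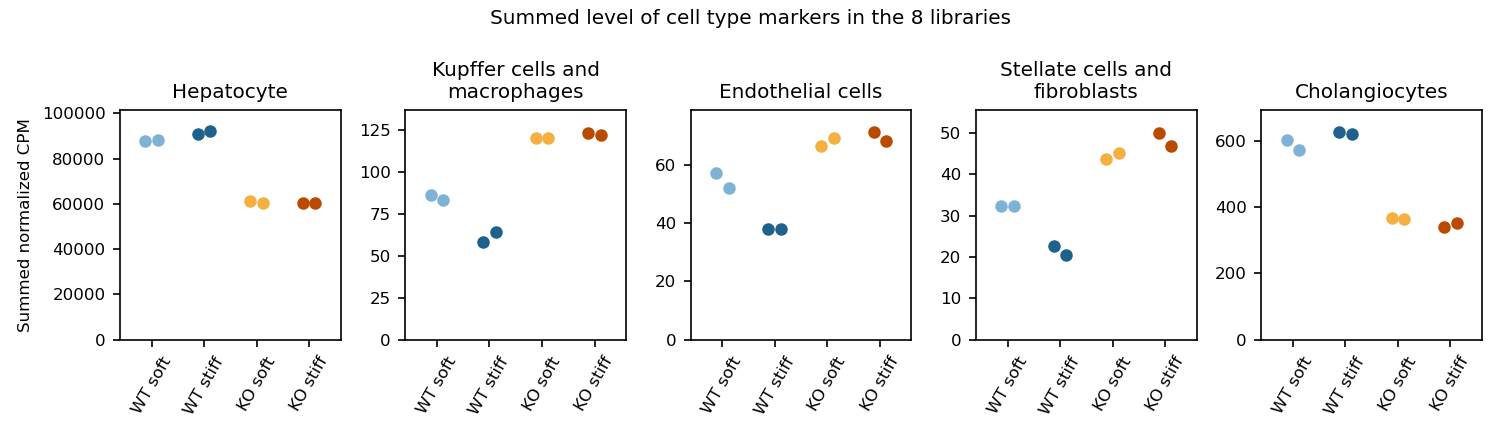
Summed normalized CPM of the marker genes of 5 cell types in the 8 libraries (points; WT, wild type; KO, knockout; linear axes from 0, a scale per panel). Kupffer, endothelial and stellate sums are lowest in wild type on stiff, at 58.2 to 64.1 CPM, 37.9 to 38.1 CPM and 20.5 to 22.6 CPM.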

How the data were processed

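RNA was measured by paired-end sequencing (150 bases) in 8 libraries of mouse primary hepatocytes. By the study's methods the authors aligned reads with HISAT2 (2.0.5 per the labels) and counted them on genes with featureCounts. The deposited table holds raw read counts per gene, not normalized, with each gene's length and position. The submitters' processing notes name the build mm9, but the header names none and 9 of 10 chosen genes start over 10000 bases from their GRCm38 position, so positions are given as deposited. Strand and multiple-match settings are not given in the sources used here. The notes also name DESeq2 1.20.0, edgeR 3.22.5 and GATK 4.1.4.1.

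The tests were run with edgeR 4.0.16 (R 4.3.3). Genes were kept by filterByExpr by group (14279 of 56748), scaled by TMM (factors 0.978 to 1.02) and fitted with glmQLFit over all 8 libraries with 4 group terms, which left 4 residual degrees of freedom and a common biological coefficient of variation of 0.0542. glmQLFTest gave p-values, adjusted by Benjamini-Hochberg over all tested genes. Intervals are 95%. DESeq2 1.42.0, other scalings, filters and fold limits, a replicate term and each library left out in turn were alternatives. Steps were tested on simulated data. Replicate libraries differed by more than sampling noise (chi-square per degree of freedom 2.62 to 5.45). Promoter windows came from RefSeq (GRCm38.p6). Figures used matplotlib 3.10.9.

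The 10 genes, the 8 pathway lists (182 entries) and the marker lists were chosen with earlier results of these data known. Named beside the 10 genes were, per pathway list, up to 3 called genes with the largest absolute log2 change and a mean of at least 100 counts, in wild type between hydrogels and between genotypes on stiff, with Rela, Yap1 and Wwtr1. The marker genes given by name (Alb, Hnf4a, Cd68, Col1a1, Krt19 and Spp1) and the list genes Nfkbib, Nfkbiz, Nfkbil1, Bcl3 and Lcn2 were singled out after their values were seen.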

Additional observations from a re-analysis of the deposited data

Results flagged for a closer look

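The log2 change from soft to stiff differed between genotypes for 5 of the 10 genes by the interaction term of the edgeR fit (knockout minus wild type). It was -2.55 for Ccl2, which had 1002 to 1012 CPM in wild type on stiff against 71.5 to 78.5 CPM in the knockout libraries, and the value lay on the same side in each alternative run. It was -1.44 for Nfkbia and -1.38 for Tnfaip3, the inhibitor genes. For Icam1 it was -0.90 and for Cxcl12 -0.77. Adjusted p-values from edgeR were 2.00e-15, 8.62e-09, 2.40e-07, 8.03e-08 and 0.00286 in this order. Each of these genes was higher on stiff in both wild-type libraries than in the other 6 libraries.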

How the results depend on the processing

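The count of called genes among the 10 was 6 (wild-type stiff against soft), 0 (knockout stiff against soft), 5 (interaction), 4 (knockout against wild type on soft) and 7 (on stiff). With a minimum log2 change of 1 it was 3, 0, 3, 1 and 4, and with no minimum it was 9, 0, 8, 6 and 9, where Relb was then called lower in wild type and positive in the interaction. Of the 14279 tested genes, 1244, 1, 1040, 353 and 2097 were called at a minimum of 1, in the same order. Without a minimum 5859, 3, 4192, 2624 and 7299 of them were called. With 1 library left out it ranged from 5 to 6, 0 to 0, 5 to 6, 4 to 4 and 7 to 7. DESeq2 and the fit with a replicate block left the counts at 6, 0, 5, 4 and 7, and the replicate block changed no call of the 10 genes and moved no pathway list count by over 1.5 times. The numbers are not shown to pair the libraries, since same-numbered libraries correlated in their deviations at -0.101 to 0.0424 and there are only 2 pairs. Differences that changed sign were all near 0 and not called. For Icam1 between the knockout hydrogels the value was -0.00334 with no filter on low counts and ranged from -0.00852 (without knockout stiff replicate 1) to 0.0156 with 1 library left out. The Cxcl1 interaction ranged with 1 library left out from -0.0803 to 0.0115, above 0 without wild-type soft replicate 2 (0.000314) or wild-type stiff replicate 2. Relb between genotypes on stiff ranged with 1 library left out from -0.0123 (without knockout stiff replicate 1) to 0.0650, and was 0.0921 with library size as the only scaling, with -0.00281 without wild-type stiff replicate 2. Counts over the pathway lists moved mostly with the fold limit. With no minimum, wild-type calls between hydrogels were 7 in place of 2 for subunits and inhibitors, 7 in place of 2 for kinases, 13 in place of 8 for receptors and adaptors and 12 in place of 7 for ubiquitin editing genes, and calls between genotypes on stiff were 6 in place of 2, 7 in place of 4, 14 in place of 9 and 14 in place of 6. Of all 14279 tested genes, 5859 and 7299 were called in these 2 comparisons with no minimum. With at least 10 counts in every library the other cytokines gave 1 call in place of 3 in wild type and 2 in place of 5 between genotypes on stiff, since fewer genes were tested. Cxcl2 lost its wild-type call without wild-type soft replicate 2. The cause was not tested. With 2 libraries per group, differences under the fold limit, as in Nfkb1, Relb and Birc3, rest on little spread, and the genes with few counts were measured less precisely, with an SE of 0.118 for Cxcl2 and 0.121 for Cxcl12 against 0.041 for Ccl2 in wild type.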
